A study of Homo sapiens with 6 samples.

Results

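The interleukin-1 family genes were examined in the established human glioblastoma line U251, for 8 genes chosen by their names in the gene expression table. These were the ligand genes IL1A, IL1B, IL18, IL33 and IL36B, the receptor antagonist gene IL1RN and the receptor genes IL1R1 and IL1RAP, that is 8 of the 58735 genes listed. RNA-seq was carried out on 3 libraries of cells that received deionized water (NC group) and 3 libraries of cells that received recombinant human TNF-α at 10 ng/mL (TNF-α group), both for 24 h. Both groups came from the same unmodified cell line, so the values describe 1 line in culture. The replicates were described as independent. Values are FPKM, the reads of a gene scaled to its length and to a library size, which allows the levels of different genes to be set side by side. The numbers of reads behind them were recovered from the table.

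Interleukin-1α and interleukin-1β, the products of IL1A and IL1B, are alarm cytokines that bind the receptor IL1R1, which then recruits the accessory chain IL1RAP and signals through MYD88, IRAK kinases and TRAF6 to NF-kB. The antagonist IL1RN occupies the same receptor without signalling. IL-1β and IL-18 are made as precursors that are cut by the protease caspase-1, IL-33 is a nuclear alarmin that signals through IL1RL1 and IL1RAP, and IL-36β acts mainly in skin. In the brain, microglia and infiltrating macrophages are known as the main sources of IL-1β, and astrocytes respond to it.

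IL1A and IL1B lie next to each other on chromosome 2 and had the largest ratios of mean FPKM between the groups among the 8 genes. Their upstream regions are therefore shown as annotated by RefSeq on GRCh38.p14, each as the 250 bases before the transcription start on the minus strand, at chr2:112784494-112784743 for IL1A and chr2:112836780-112837029 for IL1B. These RefSeq starts lie 97 and 124 bases downstream of the outermost gene start in the expression table, so these windows overlap the annotated gene there. Capitals mark matches to 2 of the 4 motifs searched on both strands.
IL1A: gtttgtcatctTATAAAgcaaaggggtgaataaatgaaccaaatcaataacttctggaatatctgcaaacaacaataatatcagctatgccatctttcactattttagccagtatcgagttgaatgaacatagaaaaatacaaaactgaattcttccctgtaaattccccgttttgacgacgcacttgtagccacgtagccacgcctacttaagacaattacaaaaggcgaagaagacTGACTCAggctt
IL1B: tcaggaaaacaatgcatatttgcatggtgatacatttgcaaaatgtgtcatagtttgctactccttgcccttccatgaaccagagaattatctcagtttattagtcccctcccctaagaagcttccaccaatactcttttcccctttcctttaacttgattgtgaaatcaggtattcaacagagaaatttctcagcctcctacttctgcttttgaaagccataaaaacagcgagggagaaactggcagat
The motifs were the NF-kB consensus, the AP-1 motif TGANTCA, the cyclic AMP response element TGACGTCA and the TATA box TATAAA. In the IL1A window the AP-1 motif stood 12 to 6 bases before the start and a TATA box match stood 239 to 234 bases before it. The IL1B window held none of the 4 motifs, which says only that these letters are not in this window. Of 34788 RefSeq windows of the same length, 9.95% held the NF-kB consensus, 6.59% the AP-1 motif, 1.64% the cyclic AMP response element and 10.8% the TATA box. The other members with RefSeq windows were IL33, IL1RN, IL1R1 and IL1RAP, and no window of these genes held the NF-kB consensus. A second, overlapping IL1A window held 2 AP-1 matches. The match 105 to 99 bases before its start is the same site as above, and the other stood 55 to 49 bases before it. An AP-1 match was also present in 1 IL1RN window, and a TATA box match in 1 further IL1RN window and 1 IL1R1 window. IL18 and IL36B had no entry.

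The libraries held between 31992167 and 37897044 reads in genes. TNF-α replicates 2 and 3 stood apart from the other 4 libraries. In these the share of reads from genes over 8 kb in length was 16.6% and 17.9%, and it was 28.8% to 29.1% in the others. The Pearson correlation of log2(FPKM + 1) between them and TNF-α replicate 1 fell as low as 0.889, against at least 0.991 among NC libraries. Of the glial markers, VIM (vimentin), NES (nestin), SOX2, GFAP and EGFR passed the filter on low values. GFAP was lower in the TNF-α group (log2 fold change -1.54, limma adjusted p 0.0210). The other tested markers went in both directions, with log2 fold changes of 1.05 for VIM, 0.36 for NES, -0.84 for SOX2 and -0.80 for EGFR. Their limma adjusted p-values lay between 0.195 and 0.241. S100B had at most 8 reads and CHI3L1 at most 2 reads in any library. Of 7 myeloid markers, PTPRC and TYROBP had 0 reads in all 6 libraries, and the 7 together summed to between 0.869 and 1.17 FPKM in the NC group and between 0.654 and 1.67 FPKM in the TNF-α group, most of it from CD14. All 3 lymphocyte markers had 0 reads.

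Across all genes, TNF-α was compared with NC by limma on log2(FPKM + 1), in which the added 1 understates the change of low genes. Genes with at least 1 FPKM in at least 3 libraries were tested, with Benjamini-Hochberg adjusted p-values over all 12136 of them. An adjusted p under 0.05 was reached by 1.01% of these genes, with 0.717% higher after TNF-α and 0.297% lower. Among the 8 family genes, IL1B, IL18, IL1R1 and IL1RAP were tested, and IL1B alone passed the threshold. IL1B reached 1 FPKM in 3 libraries, all of the TNF-α group, so it entered the test only through the group where it was higher. The median log2 fold change of the 4 was 0.31, beside 0.04 over all genes tested. The groups did not overlap for IL1B and IL18, 2 of the 4, and they did not for 30.1% of all genes tested. IL1A, IL33, IL1RN and IL36B did not pass the filter.

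**Figure D1:**
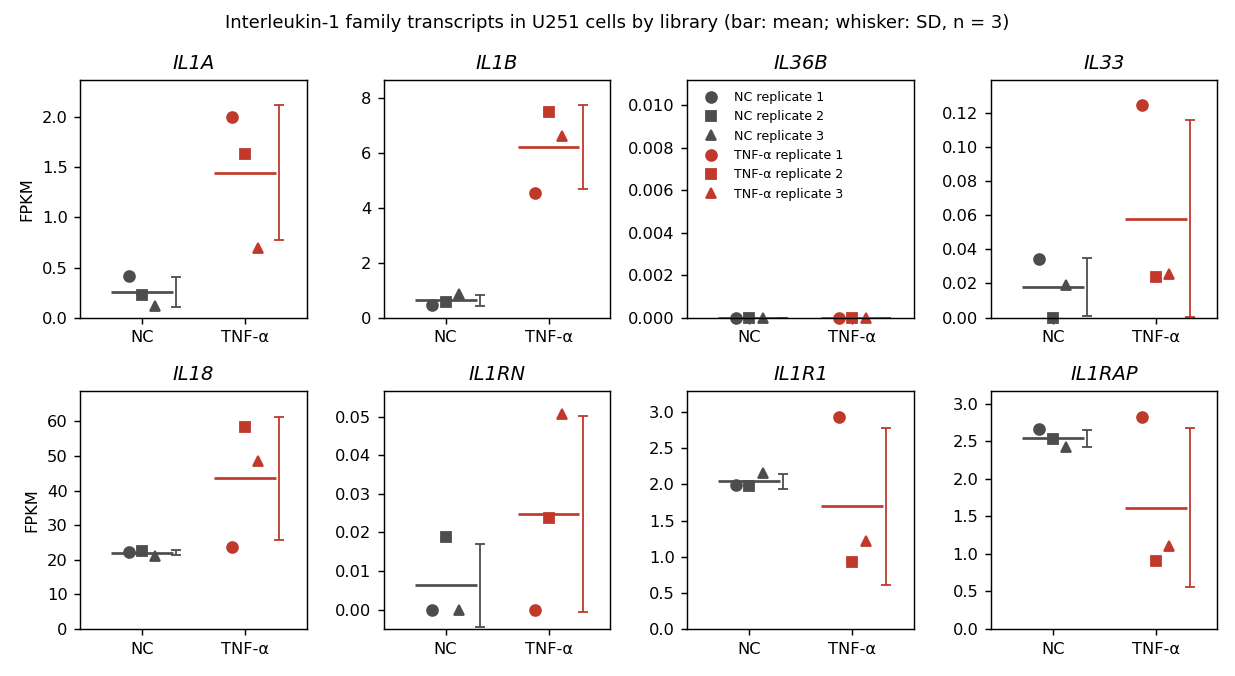
FPKM of the 8 family genes in each library, with 1 panel per gene and its own linear axis. Points are libraries, horizontal bars group means and whiskers SD (n = 3 per group). IL1B and IL1A are higher in each TNF-α library than in any NC library, IL18 exceeds the NC values clearly in TNF-α replicates 2 and 3, and IL36B is at 0 throughout.

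The agonist IL1B had the highest ratio of group means in the family. IL1B (ENSG00000125538, chromosome 2, 112829751 to 112836903, minus strand, GRCh38) measured 0.474, 0.561 and 0.845 FPKM in the NC group and 4.53, 7.51 and 6.61 FPKM after TNF-α. Every TNF-α library was above every NC library, by a wide gap. The means were 0.627 ± 0.194 and 6.22 ± 1.53 FPKM (SD, n = 3 per group), a ratio of 9.93, and the log2 fold change was 2.13 (SE 0.20, limma adjusted p 0.0111). These values rest on 53, 57 and 84 reads in the NC group and 451, 603 and 497 after TNF-α. As a share of the reads in genes, the ratio of the group means was 8.14. With a filter of 0.1 FPKM in at least 3 libraries the limma adjusted p was 0.0138, where 0.501% of genes passed. With no filter it was 0.0412, where 0.183% passed. IL1B ranked 33 by log2 fold change among the 87 genes that rose past the threshold. By mean FPKM it moved from rank 10915 to rank 6112 among 19951 protein-coding genes. The rise was present in the library that resembled the NC group in composition, with a difference of 1.77 from the NC mean in TNF-α replicate 1 and of 2.39 and 2.23 in replicates 2 and 3. Without TNF-α replicates 2 and 3, the log2 fold change was 1.77 with an adjusted p of 0.00309 by limma, where 6.03% of all genes passed and the lone TNF-α library was assumed to vary like the NC group. The limma adjusted p missed the threshold, at 0.106, 0.111, 0.0939 and 0.0908, without NC replicate 1, 2 or 3 or TNF-α replicate 3 respectively, where 0.14%, 0.0824%, 0.107% and 0.165% of all genes passed. Of the 7 markers of myeloid cells, a known source of IL-1β, PTPRC and TYROBP were at 0 reads and AIF1, ITGAM and LYZ at no more than 2 reads in any library. CD14 had 45, 51 and 46 reads in the NC group and 32, 76 and 55 after TNF-α, and CSF1R had 37, 56 and 30 against 20, 12 and 16. Their part in the result was not tested. In bulk RNA a higher level per cell and a larger number of cells with the transcript cannot be told apart.

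IL1A, which encodes the other agonist, was low in both groups. IL1A (ENSG00000115008, chromosome 2, 112773915 to 112784590, minus strand) measured 0.417, 0.230 and 0.117 FPKM in the NC group and 2.01, 1.63 and 0.698 FPKM after TNF-α. The groups did not overlap, but the lowest TNF-α library was less than 1 FPKM above the highest NC library and the spread within the TNF-α group was wide. The reads numbered 32, 16 and 8 in the NC group and 137, 90 and 36 after TNF-α. The means were 0.255 ± 0.151 and 1.45 ± 0.675 FPKM (SD, n = 3 per group), a ratio of 5.68. The exact two-sided permutation p was 0.1, the smallest that 3 against 3 libraries can give. IL1A reached 1 FPKM in 2 libraries and so was not tested across genes. With a filter of 0.1 FPKM in at least 3 libraries its log2 fold change was 0.93 (SE 0.23, limma adjusted p 0.183), where 0.501% of genes passed, and with no filter the adjusted p was 0.324, where 0.183% passed.

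The balance of the 2 agonists varied from library to library. The FPKM ratio of IL1B to IL1A was 1.14, 2.44 and 7.20 in the NC group and 2.26, 4.60 and 9.47 after TNF-α. These ranges overlapped, and among the NC libraries IL1A was highest where IL1B was lowest. On the log2(FPKM + 1) scale the mean ratio was 0.37 ± 0.33 in the NC group and 1.58 ± 0.65 in the TNF-α group (SD, n = 3 per group). Both genes were below 1 FPKM in every NC library, where the added 1 pulls this ratio toward 0. The difference between the groups thus depends partly on the pseudocount. It was 1.20 with 1 added, 1.24 with 0.5 and 1.02 with 0.1.

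IL18, which encodes the precursor of a cytokine that induces interferon-γ, was the most abundant family transcript in every library. IL18 (ENSG00000150782, chromosome 11, 112143251 to 112164117, minus strand) measured 22.3, 22.5 and 21.2 FPKM in the NC group and 23.7, 58.3 and 48.6 FPKM after TNF-α. TNF-α replicate 1 lay just above the NC range and the other TNF-α libraries far above it. The log2 fold change was 0.86 (SE 0.33, limma adjusted p 0.195), which missed the threshold. TNF-α replicate 1 differed from the NC mean by 0.10 on the log2 scale, replicate 2 by 1.37 and replicate 3 by 1.11. The higher values thus came from the libraries that stood apart. The log2 fold change was 0.50 with a gene length correction (limma adjusted p 0.193), 0.48 with quantile normalization (adjusted p 0.191) and 0.77 with the gene length and GC correction (adjusted p 0.170). The ratio of the group means was 1.98 in FPKM and 1.59 as a share of the reads in genes. Without TNF-α replicate 1 the log2 fold change was 1.24 (limma adjusted p 2.0e-05), but 79.4% of all genes then passed. Without TNF-α replicates 2 and 3 it was 0.10 (adjusted p 0.512).

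**Figure D2:**
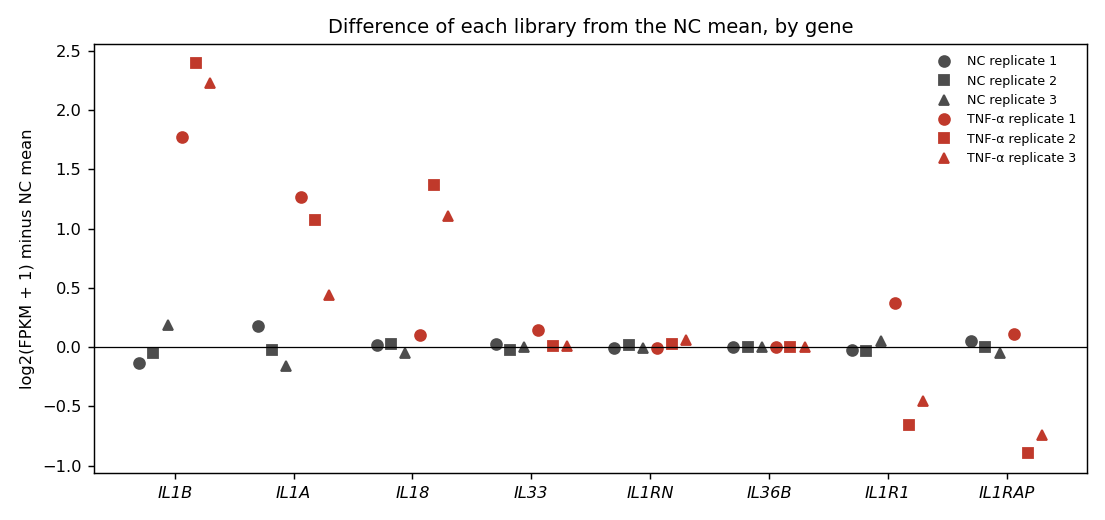
Difference of log2(FPKM + 1) of each library from the NC mean, for the 8 family genes on the horizontal axis. IL1B and IL1A are above 0 in all TNF-α libraries, while IL18 and IL1RAP differ from the NC group mainly in TNF-α replicates 2 and 3. IL1R1 differs from it in each TNF-α library. The receptor genes lie above the NC mean in TNF-α replicate 1 and below it in the other TNF-α libraries.

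The receptor genes differed from the NC group in opposite directions from one TNF-α library to another. IL1R1 (ENSG00000115594, chromosome 2, 102064544 to 102179874, plus strand), the signalling receptor, measured 1.99, 1.97 and 2.16 FPKM in the NC group and 2.94, 0.926 and 1.22 FPKM after TNF-α. TNF-α replicate 1 was the highest of the 6 libraries and the other TNF-α libraries were the lowest. The log2 fold change was -0.25 (SE 0.27, limma adjusted p 0.492), and it became 0.074 after a correction for gene length and GC content (adjusted p 0.719, where 2.21% of all genes passed). Without TNF-α replicates 2 and 3 it was 0.37 (adjusted p 0.106), and without TNF-α replicate 1 it was -0.56 (adjusted p 0.00164, where 79.4% of all genes passed).

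IL1RAP, the accessory chain shared by the receptors for IL-1, IL-33 and IL-36, had a similar pattern. IL1RAP (ENSG00000196083, chromosome 3, 190514051 to 190659750, plus strand) measured 2.66, 2.54 and 2.43 FPKM in the NC group and 2.83, 0.901 and 1.11 FPKM after TNF-α. Its values in TNF-α replicates 2 and 3 were below all others, and TNF-α replicate 1 was above the NC range. The log2 fold change was -0.51 (SE 0.27, limma adjusted p 0.212), and it was 0.11 without TNF-α replicates 2 and 3. Without TNF-α replicate 1 it was -0.82 (limma adjusted p 0.000135), but 79.4% of all genes then passed. The exons span 7083 bases for IL1R1 and 11558 bases for IL1RAP. IL1RAP, but not IL1R1, is among the 2369 tested genes longer than 8 kb. These genes differed from the NC mean by a median of 0.00, -0.56 and -0.52 on the log2 scale in TNF-α replicates 1, 2 and 3. IL1RAP differed by 0.11, -0.90 and -0.75. With a gene length correction the log2 fold change of IL1RAP was -0.17 (limma adjusted p 0.411). With the gene length and GC correction it was -0.033 (limma adjusted p 0.814). The cause of the lower receptor values in TNF-α replicates 2 and 3 was not tested. Exons of another gene covered 4.63% of the exonic length of IL1RAP and 0.155% of that of IL1R1, and 0% for the other 6 family genes.

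The FPKM ratio of IL1R1 to IL1RAP within each library spanned a narrower range than either gene. It was 0.749, 0.778 and 0.889 in the NC group and 1.04, 1.03 and 1.098 after TNF-α. All TNF-α libraries, replicate 1 included, lay above the NC range. FPKM values carry no correction for the long-gene difference between libraries. With a gene length correction the log2 fold changes of the 2 genes lay closer together. They were -0.10 for IL1R1 and -0.17 for IL1RAP, against -0.25 and -0.51 without it. The mean log2 ratio with 1 added to each FPKM was -0.22 ± 0.09 in the NC group and 0.04 ± 0.03 in the TNF-α group (SD, n = 3 per group), given here as a description.

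The remaining members were at or near the limit of detection. IL1RN (ENSG00000136689, chromosome 2, 113107214 to 113134016), the antagonist, had 0, 2 and 0 reads in the NC group and 0, 2 and 4 reads after TNF-α. Since 3 reads of this gene correspond to 0.0255 to 0.0379 FPKM, a difference near this level could not be resolved and no fold is given. The exact two-sided permutation p was 0.4 for the mean FPKM. The highest value was 0.0506 FPKM, in TNF-α replicate 3. IL33 (ENSG00000137033, chromosome 9, 6215786 to 6257983) had 4, 0 and 2 reads in the NC group and 13, 2 and 2 reads after TNF-α, with an exact two-sided permutation p of 0.4 for the mean FPKM. Its highest value, 0.124 FPKM, came from TNF-α replicate 1 and the other TNF-α libraries were within the NC range. IL36B (ENSG00000136696, chromosome 2, 113022091 to 113052867) had 0 reads in all 6 libraries, which allows up to 0.0444 to 0.0661 FPKM, depending on the library. These limits cover counting error only and take each read as independent. As 2 reads may share a fragment, the true limits may be higher.

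The order of the levels changed between the groups. In the NC group the means ran from IL18 (22.0 FPKM) through IL1RAP (2.54), IL1R1 (2.04), IL1B (0.627) and IL1A (0.255) to IL33 (0.0177), IL1RN (0.00624) and IL36B (0), and the ranges of neighbours overlapped only among the last 3. In the TNF-α group IL1B (6.22 FPKM) stood next to IL18 (43.6), ahead of IL1R1 (1.70), IL1RAP (1.62) and IL1A (1.45). The ranges of IL1R1, IL1RAP and IL1A overlapped there from neighbour to neighbour, and so did those of IL33 (0.0578), IL1RN (0.0248) and IL36B (0).

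Most ligand genes of the family sit together on chromosome 2, where the interval from IL1A to IL1RN (112773915 to 113134016, 360 kb) holds 9 protein-coding genes, all of this family. In chromosomal order these were IL1A, IL1B, IL37, IL36G, IL36A, IL36B, IL36RN, IL1F10 and IL1RN. Together they had 91, 83 and 98 reads in the NC group and 594, 705 and 562 reads after TNF-α. IL1A and IL1B held 88.0% to 93.9% of these reads in the NC group and 94.8% to 99.0% in the TNF-α group. No other gene of the interval exceeded 21 reads in any library, that number being IL37 in TNF-α replicate 3, and IL36A, IL36B and IL1F10 had 0 reads throughout.

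The receptor interval from IL1R2 to IL18RAP (101991844 to 102452565, chromosome 2) holds 6 protein-coding genes, again all of this family. IL1R1 supplied 81.1% to 83.8% of their reads in the NC group and 60.1% to 76.2% in the TNF-α group. The decoy receptor gene IL1R2 had between 4 and 8 reads in any library and IL1RL2, the receptor of IL-36, had 0 reads. IL18R1 and IL1RL1, the receptors of IL-18 and IL-33, had at most 120 and 83 reads, both in TNF-α replicate 1, and the groups overlapped for both. IL18RAP, the second chain of the IL-18 receptor, had at most 4 reads.

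**Figure D3:**
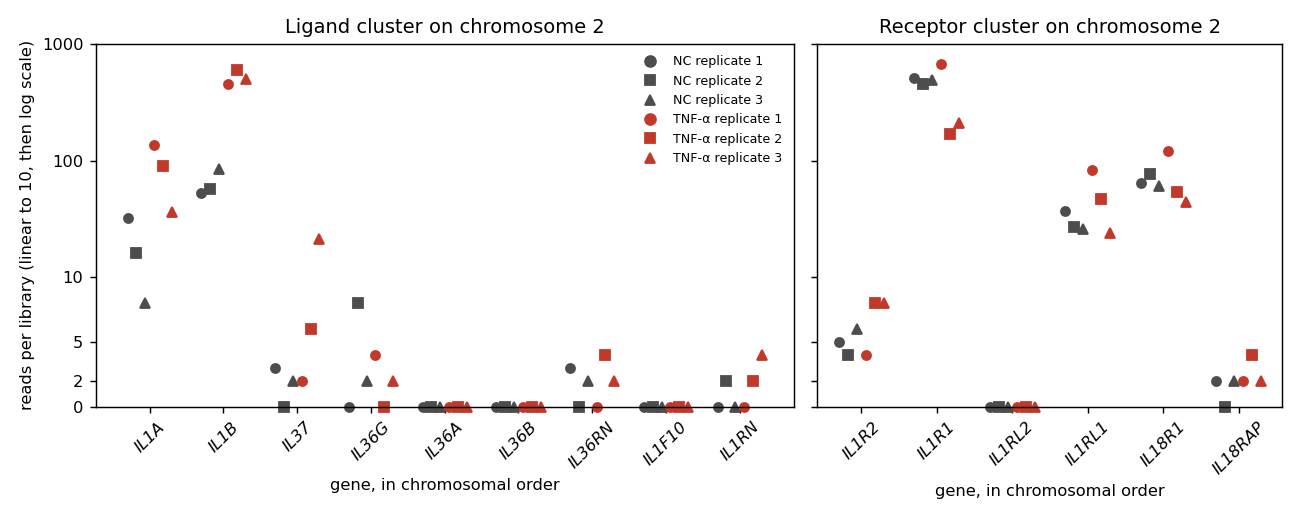
Reads per library of the protein-coding genes in the ligand and receptor intervals of chromosome 2, in chromosomal order. The vertical axis is linear up to 10 reads and logarithmic above. IL1A and IL1B carry most reads of the ligand interval and are higher in TNF-α libraries, and IL1R1 carries most reads of the receptor interval.

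The other genes of the pathway were taken from a list of 39 genes in 3 blocks, namely 14 further ligands and receptors, 11 genes of precursor processing and inflammasomes, and 14 genes of receptor signalling. Like the members, it was put together with results of these data known. Of its genes 18 were tested, and 1 passed the threshold as higher and 0 as lower, beside 1.01% over all genes. An unadjusted p under 0.05 was found for 6 of the 18, beside 24.2% of all genes tested. The median log2 fold change of the 18 was 0.04, as over all genes tested (0.04).

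The gene that passed was IRAK2, a kinase-like adaptor that sustains signalling downstream of MYD88. IRAK2 measured 5.63, 5.56 and 5.35 FPKM in the NC group and 35.3, 26.8 and 28.1 FPKM after TNF-α. The groups were far apart and TNF-α replicate 1 was the highest library. The log2 fold change was 2.24 (SE 0.15, limma adjusted p 0.00316). With TPM in place of FPKM it was 1.89 and the adjusted p 0.1002, where 0.478% of all genes passed, and the adjusted p was 0.0503 without NC replicate 2 and 0.0515 without NC replicate 3. Of the 13 tested signalling genes, 6 had a log2 fold change above 0 and 7 below, with a median of -0.08. The smallest p-values after IRAK2 were those of PELI2, a ubiquitin ligase of the pathway (log2 fold change -0.60), the kinase gene MAP3K7 (-0.51) and the ubiquitin ligase gene TRAF6 (-0.39), all with limma adjusted p-values between 0.195 and 0.198. Without TNF-α replicates 2 and 3 the log2 fold changes were -0.22 for PELI2, -0.086 for MAP3K7 and -0.0069 for TRAF6, and MAP3K7 was at -0.073 with the gene length and GC correction.

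In the processing block, the 4 tested genes had log2 fold changes between 0.58 and 1.24 with a median of 0.91, and none passed the threshold by limma, while 3 had an unadjusted p under 0.05, beside 24.2% of all genes tested. CASP1, the protease that matures IL-1β and IL-18, measured 2.78, 2.00 and 2.41 FPKM in the NC group and 3.02, 5.55 and 6.28 FPKM after TNF-α. Its groups did not overlap, with TNF-α replicate 1 close to the NC range, and the log2 fold change was 0.77 (SE 0.25, adjusted p 0.195). CASP4, a caspase that senses lipopolysaccharide in the cytosol, had 7.54, 7.01 and 7.21 FPKM against 11.7, 19.3 and 18.5 FPKM. The groups were apart, with a log2 fold change of 1.05 (SE 0.21, adjusted p 0.101). CASP4 passed under quantile normalization (0.96, adjusted p 0.0476, where 1.52% of all genes passed), without TNF-α replicates 2 and 3 (0.62, adjusted p 0.00967, where 6.03% passed) and without TNF-α replicate 1 (1.27, adjusted p 1.0e-05, where 79.4% passed). GSDMD, the pore-forming gasdermin D, measured 8.02, 8.61 and 10.9 FPKM in the NC group and 10.9, 38.5 and 28.0 FPKM after TNF-α. The log2 fold change was 1.24 (SE 0.44, adjusted p 0.195), and TNF-α replicate 1 lay just inside the upper end of the NC range. Without TNF-α replicates 2 and 3 the log2 fold change was 0.25 for CASP1 and 0.24 for GSDMD. Of the further ligands and receptors, IL18BP, the secreted inhibitor of IL-18, was the 1 gene tested, with a log2 fold change of -0.29 (SE 0.20, adjusted p 0.285). Exons of NUMA1 on the other strand cover 15.6% of its exonic length.

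**Figure D4:**
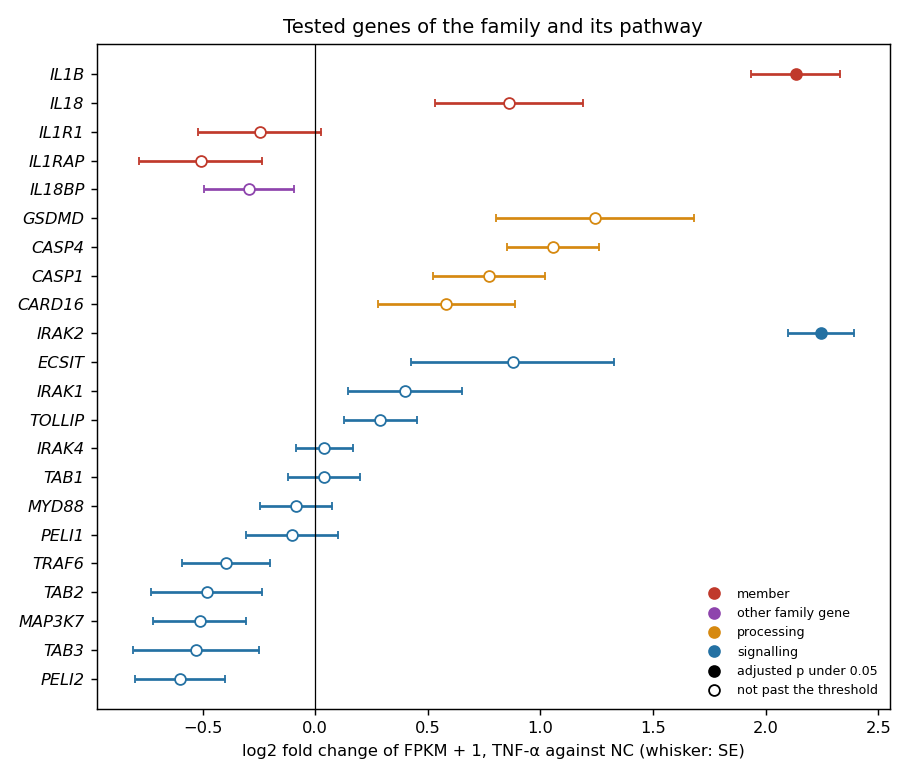
Log2 fold change of FPKM + 1 between the TNF-α and NC groups for the 22 tested genes of the family and its pathway, with whiskers for the SE of the limma fit. Filled points passed an adjusted p under 0.05, which were IL1B and IRAK2, and open points did not.

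To see which genes varied like IL1B, Pearson's r of log2(FPKM + 1) over the 6 libraries was computed between IL1B and every gene tested. The highest values were those of TNIP1, a binding partner of the NF-kB inhibitor A20 (r = 0.999), C1QTNF1 (r = 0.998) and LAMB3, a laminin chain (r = 0.998). TNIP1 measured 20.5, 20.5 and 23.7 FPKM in the NC group and 100, 191 and 160 FPKM after TNF-α, in the same order of libraries within the TNF-α group as IL1B. These libraries share their group and composition differences, so the correlation is a description over 6 points.

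**Figure D5:**
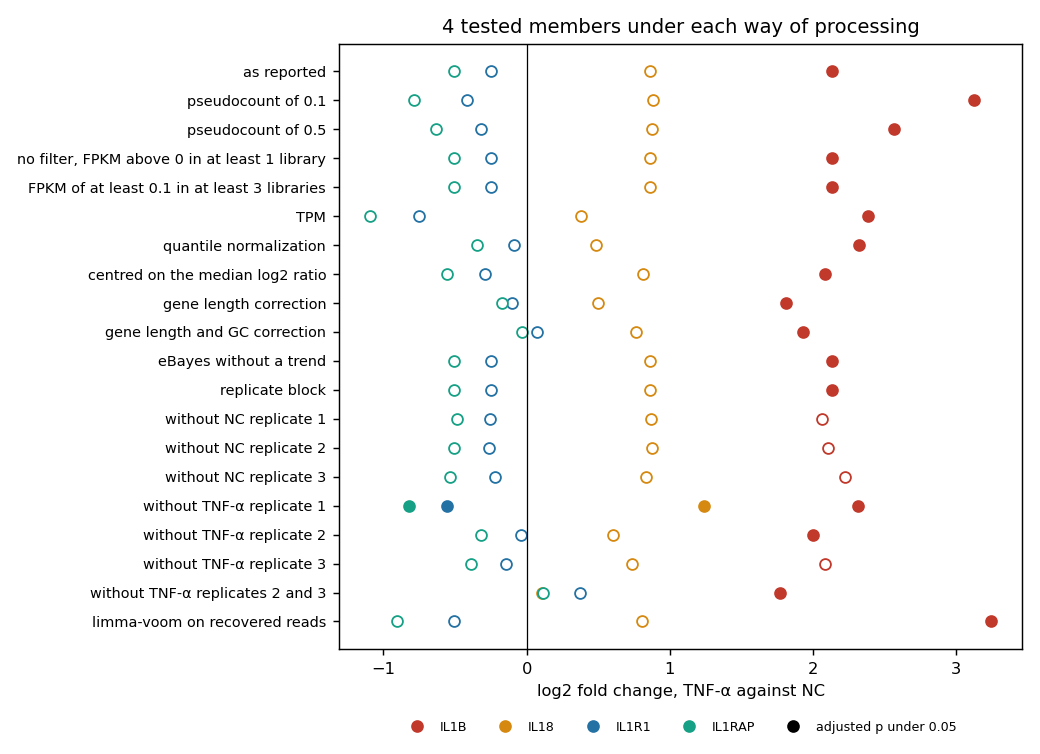
Log2 fold change of IL1B, IL18, IL1R1 and IL1RAP as reported and under 19 alternatives, 1 per line. Filled points passed an adjusted p under 0.05. IL1B stays between 1.77 and 3.25, IL18 stays above 0, and the receptor genes take values on both sides of 0.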

How the data were processed

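RNA-seq was performed on poly(A)-selected RNA from 3 NC and 3 TNF-α libraries of U251 cells. The submitters' processing notes name HISAT2 2.0.5, StringTie 1.3.3b, featureCounts 1.5.0, DESeq2, edgeR and GATK 3.7 without a role, and neither the use of strand nor the build is given in the sources used here. The authors deposited FPKM per gene, 1 column per library. All 58735 identifiers, names, positions and exon lengths matched GENCODE 29 on GRCh38. The table also holds 6 columns named for other samples, which were not used.

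Reads were recovered from the product of FPKM and gene length, which came in steps of 1 size in each library (100% whole within 0.01 of a step). Values from 1 to 20 reads were even in 57.6% to 63.8% of cases, so 2 reads may share a fragment. The library size in the FPKM was 0.693 to 0.959 of the reads in genes, lowest in TNF-α replicates 2 and 3. Tests used limma 3.58.1 in R 4.3.3 (lmFit, eBayes with an intensity trend, two-sided) on log2(FPKM + 1), and were checked on simulated data. The simulation drew every library from the NC means, so it does not cover the composition difference of TNF-α replicates 2 and 3. IL1A, IL1RN and IL33 were compared by an exact two-sided permutation test. The tables were made with Python 3.11.15, scipy 1.17.1 and pandas 2.3.3.

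The members and lists were chosen with earlier results of these data known. Named were the 8 members, list genes past the threshold with up to 3 further genes per block by smallest p, and the 3 genes most correlated with each member that passed. The alternatives covered the pseudocount, the filter, scaling, gene length, the trend, the replicate block, left-out libraries and limma-voom. The correction for GC content and the joint removal of TNF-α replicates 2 and 3 were chosen after seeing the data.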

Additional observations from a re-analysis of the deposited data

How the results depend on the processing

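IL1B stayed higher in the TNF-α group in each of 19 alternatives (log2 fold change 1.77 to 3.25), and its adjusted p stayed under 0.05 in 15 of them. The count of family genes past the threshold was 1 of 4 tested, beside 1.01% of all genes. Over the fits that left out 1 library it ranged from 0 to 4. It was 4 without TNF-α replicate 1, where 79.4% of all genes passed. It was 0 without any 1 NC library or TNF-α replicate 3, where at most 0.165% of all genes passed. The count for the pathway list was 1 of 18. In those fits it ranged from 0 (without NC replicate 2 or 3) to 15 (without TNF-α replicate 1, beside 79.4% of all genes). It was 0 with TPM, where 0.478% of all genes passed, and 2 with quantile normalization, where 1.52% passed. Over all genes the count was 123, and it became 58 with no filter, 58 with TPM, 185 with quantile normalization, 268 with the gene length and GC correction, 732 without TNF-α replicates 2 and 3, and from 10 (without NC replicate 2) to 9630 (without TNF-α replicate 1) when 1 library was left out. Same-numbered libraries were not paired, as their deviations from the group means correlated at -0.01, -0.18 and 0.12. With the replicate number as a block 24 genes passed, IL1B and IRAK2 among them, and no call of a family or pathway gene changed. With TPM the median log2 fold change over all genes was -0.42, against which IL18 stood at 0.38.

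IL1R1 turned to 0.074 with the gene length and GC correction and to 0.37 without TNF-α replicates 2 and 3, where IL1RAP turned to 0.11 and IL18BP to 0.090. The cause was not tested. With a pseudocount of 0.1 the difference in the log2 ratio of IL1R1 to IL1RAP was 0.37 in place of 0.26. The differences in mean FPKM of IL1A, IL33 and IL1RN kept their sign in all 7 alternatives each. For IL33 and IL1RN they were as low as 0.0068 and 0.0056 FPKM. These lie below the 0.0255 FPKM that 3 reads represent, so their sign cannot be read as a difference. The deposited unit is FPKM, and limma-voom was the only count-based test run on the recovered reads. The tests of edgeR and DESeq2 were not run. With 0 to 13 reads, depth limits IL1RN, IL33 and IL36B to the detection limits given.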

Other observations

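Inflammasome genes under the filter on low values were looked at after their values were seen. NLRP3, the sensor of the inflammasome that activates caspase-1, had 0, 2 and 2 reads in the NC group and 10, 10 and 8 reads after TNF-α. PYCARD, the adaptor that joins NLRP3 to caspase-1, had 5, 2 and 1 reads in the NC group and 0 reads in each TNF-α library, but exons of PYCARD-AS1 on the other strand cover 59.7% of its exonic length and the use of strand in counting is not known. NLRP3 and PYCARD were thus 2 of 7 genes under the filter whose groups did not overlap. Of the 7, CASP5 and CARD18 had no reads and so could not show a difference. The share of 30.1% over all genes tested is for genes that passed the filter. None was computed for genes under it, so the 2 of 7 cannot be read as a result about these genes. The groups overlapped for NLRP1 (70 to 103 reads over the 6 libraries), NLRC4 (18 to 36 reads) and AIM2 (4 to 12 reads), and CASP5 and CARD18 had 0 reads throughout. IL37, which encodes an anti-inflammatory member of the family, had 3, 0 and 2 reads in the NC group and 2, 6 and 21 reads after TNF-α, and the groups overlapped.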
